A study of Mus musculus with 6 samples.

Results

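The killer cell lectin-like receptors (Klr genes) described here are Klrd1, Klrk1, Klrc1, Klrc2, Klrc3, Klrb1c, Klrb1f, Klrg1, Klre1 and Klra7, chosen by gene symbol from the annotation of the array. Of these 10 genes, 9 had a probe set of their own among the 19938 genes represented by a probe set with a single gene symbol, and 7 were bright enough to be tested among 9924 tested genes. Affymetrix Gene ST arrays for mouse were used to measure RNA of resting splenic CD8+ T cells (CD8-TC), taken without stimulation from 3 Runx3-/- mice and 3 wild-type (WT) mice, with 1 array per mouse. All mice were ICR males, an outbred stock, aged 6 weeks. The Runx3 deletion was germline, so that the other cells of these mice lacked Runx3 as well. WT cells were selected on magnetic beads, whereas Runx3-/- cells were selected on beads and then sorted to remove CD11c+ dendritic cells, according to 1 of the protocols, while another mentions sorting for all samples. If the purification differed in this way, it cannot be told apart from genotype.

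Klr genes encode C-type lectin-like receptors of natural killer (NK) cells and of subsets of CD8+ T cells, above all activated and memory cells. Some inhibit the cell on meeting a self ligand on a target cell, and others activate it through adaptor proteins that carry signalling motifs. Klrd1 encodes CD94, which pairs with the NKG2 proteins encoded by Klrc1, Klrc2 and Klrc3 to read the non-classical MHC molecule Qa-1. Klrk1 encodes NKG2D, the activating receptor for stress-induced ligands. Most of these genes lie side by side in the NK gene complex of chromosome 6. Runx3 is a transcription factor whose family binds DNA motifs with the core TGTGGT.

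Promoter stretches of members are shown because the deleted gene encodes a DNA-binding factor and because neighbouring members differed in how they compared between genotypes. Sequences come from the RefSeq annotation of GRCm38.p6 and are printed 5′ to 3′ on the strand of the gene. Capitals mark a match to TGTGGT or TGTGGC, where ACCACA is TGTGGT read on the opposite strand. The 3 Klrc members, whose proteins pair with CD94, come first, followed by Klrk1, which had matches to both motifs, Klrb1c, and the 250 bases before the start of Klrb1f, in which no motif was found.
Klrc1, chr6:129679025-129679084 (-): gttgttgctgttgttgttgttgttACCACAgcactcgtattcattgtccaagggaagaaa
Klrc2, chr6:129660597-129660656 (-): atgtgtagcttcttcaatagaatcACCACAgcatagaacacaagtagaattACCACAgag
Klrc3, chr6:129643329-129643388 (-): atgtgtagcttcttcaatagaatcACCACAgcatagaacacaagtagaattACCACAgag
Klrk1, chr6:129623981-129624040 (-): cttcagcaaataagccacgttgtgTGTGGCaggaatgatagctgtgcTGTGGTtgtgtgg
Klrb1c, chr6:128788695-128788754 (-): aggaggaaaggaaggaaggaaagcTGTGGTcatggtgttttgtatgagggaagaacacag
Klrb1f, chr6:129045651-129045900 (+): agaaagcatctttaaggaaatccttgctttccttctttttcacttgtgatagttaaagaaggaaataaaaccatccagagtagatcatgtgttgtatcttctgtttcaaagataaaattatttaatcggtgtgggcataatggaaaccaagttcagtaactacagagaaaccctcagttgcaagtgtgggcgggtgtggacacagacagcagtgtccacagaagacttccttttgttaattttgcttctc

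The stretches of Klrc2 and Klrc3 were identical in all 60 bases, and their full windows were 98.3% identical. The Klrc1 window was 51.4% identical to that of Klrc2 and 52.3% identical to that of Klrc3. Over windows of 300 bases (250 before to 50 after the start), 8 members had an entry, and 7 of these 8 had at least 1 match, on either strand, to the motif TGTGGT or to its variants with C as the last base (TGTGGC), with C as the third base (TGCGGT) or with both changes (TGCGGC). Counted by window, 8 of the 11 windows of these members held a match. Among all 32851 promoter windows of this length, 45.2% held at least 1 of the 4 motifs, 16.8% held TGTGGT and 18.9% held TGTGGC. A match is a run of letters and not a measured binding site. The matches began 152 (TGTGGC) and 129 (TGTGGT) bases before the start of Klrk1, 87 before Klrc1, 76 and 49 before Klrc3 and before the start of 1 of the Klrc2 windows (36 and 9 before that of the other), and 89 before Klrb1c. In Klre1 a TGTGGT match began 229 bases before the start of 1 of its windows, and in Klra7 a TGTGGC match began 172 bases before the start of 1 of its windows. Klrd1 and Klrg1 are named only.

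The arrays were compared on the log2 signal that the authors deposited after RMA, a normalisation that puts the arrays on a common scale. Each difference is Runx3-/- minus WT, fitted with limma over all 9924 genes, with Benjamini-Hochberg adjustment over the same genes and a threshold of 0.05. A gene was tested when its signal reached the median of the array on at least 1 of the 6 arrays. With this test, 1154 genes differed (11.6%), of which 595 were lower in Runx3-/- (6.00%) and 559 were higher (5.63%). Among the 7 tested members, 1 fell (Klrd1), 1 rose (Klrb1f) and 5 did not pass. The median difference of the 7 was -0.28, which is the value of Klrc2 itself, against 0.0062 over all genes tested. Without WT array 3 the difference of Klrc2 was -0.068. Klrk1 and Klrc2 passed the filter through WT arrays only and Klrb1f through a Runx3-/- array only, so the direction of these 3 was partly set by the filter. The groups did not overlap in 4 of the 7 members and in 33.6% of all genes tested. Among these 4, Klrd1 and Klrk1 were lower in Runx3-/- (16.2% of all genes) and Klrb1f and Klrg1 were higher (17.4%).

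As a check of the deleted gene, the Runx3 probe set gave 7.06, 7.17 and 7.64 in Runx3-/- arrays, against 7.09, 7.30 and 6.99 in WT arrays (0.16 ± 0.16 SE, limma adjusted p = 0.559). The position of its probes within the gene is unknown here, so the value cannot serve as a check of the labels. Over all probe sets, pairs of arrays from the same genotype reached r of at least 0.985, and pairs across genotypes at most 0.971.

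**Figure D1:**
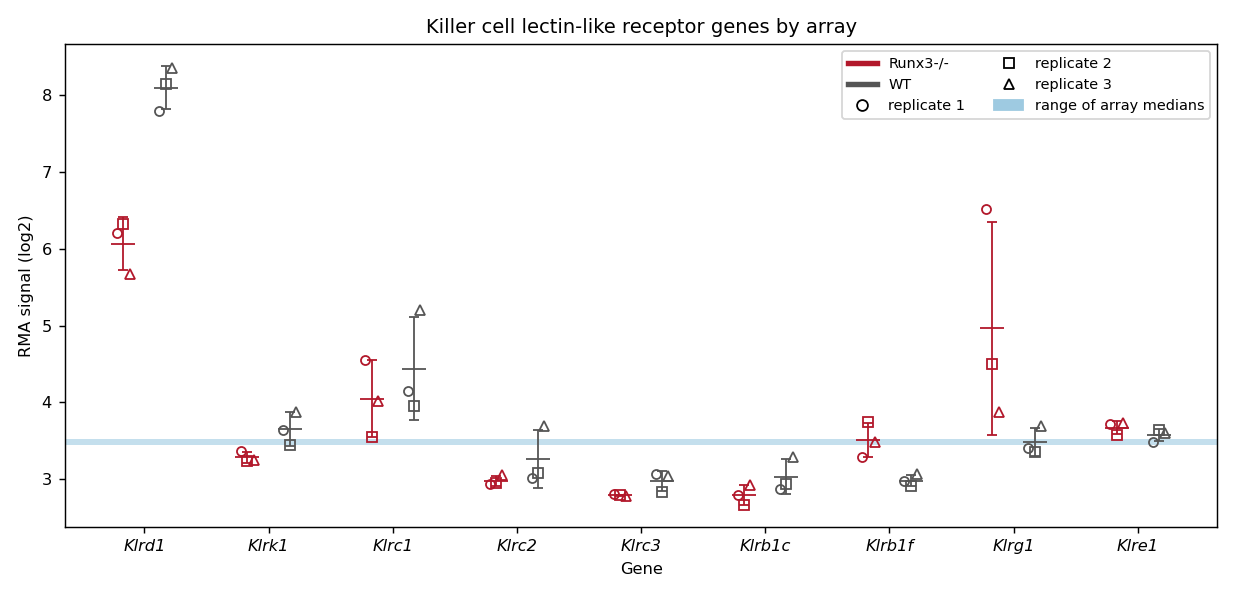
Log2 RMA signal (y axis) of the 9 members with a probe set of their own (x axis), with Runx3-/- arrays in red left of WT arrays in grey. Each symbol is 1 array, horizontal bars give the mean and SD of 3 arrays, and the blue band spans the 6 array medians. Klrd1 lay between 5.67 and 6.32 in Runx3-/- arrays, below all WT arrays, and Klrg1 was spread from 3.87 to 6.52 in Runx3-/- arrays.

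Klrd1 was the member with the strongest difference. Its log2 signal was 6.21, 6.32 and 5.67 in Runx3-/- arrays, against 7.80, 8.15 and 8.36 in WT arrays. The groups were far apart, with the highest Runx3-/- array below the lowest WT array. Mean signal was 6.07 ± 0.35 in Runx3-/- and 8.10 ± 0.28 in WT (SD, n = 3 each), a difference of -2.03 ± 0.20 (SE, 95% interval -2.48 to -1.59, limma adjusted p = 0.000529), or 4.10-fold lower. Among the 9924 tested genes, 48 had a larger fall. CD94 transcript was lower but still clearly measured in Runx3-/- cells, lying 2.56 above the array median there and 4.61 above it in WT. Leaving out each array in turn gave differences between -2.19 and -1.84. The call was lost when variances were not moderated across genes (limma fit, adjusted p = 0.0602).

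The NKG2 partners of CD94 gave smaller differences, none of which passed. Klrc1, which encodes the inhibitory partner NKG2A, had log2 signals of 4.56, 3.55 and 4.02 in Runx3-/- arrays, against 4.15, 3.96 and 5.20 in WT arrays. The groups overlapped, and WT array 3 stood above the other 5. The difference was -0.39 ± 0.34 (SE, 95% interval -1.18 to 0.40, limma adjusted p = 0.508), and without WT array 3 it was -0.0088. Because this interval is wide, it includes both a fall of more than 1.5-fold and no change.

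Klrc2 encodes NKG2C, an activating partner. Its log2 signal was 2.94, 2.95 and 3.05 in Runx3-/- arrays, against 3.02, 3.07 and 3.69 in WT arrays. It reached the array median in WT array 3 only, so that it was tested through its level in WT, and the groups overlapped. The difference was -0.28 ± 0.17 (SE, limma adjusted p = 0.327), and without WT array 3 it was -0.068.

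Klrc3 encodes NKG2E and was below the array median on all 6 arrays, so it was not among the tested genes. Signals were 2.80, 2.79 and 2.77 in Runx3-/- arrays, against 3.06, 2.83 and 3.04 in WT arrays. The groups did not overlap, but the whole gap lay in the dim range, with a difference of -0.19. A fit of all genes without the filter gave a 95% interval of -0.37 to -0.012 (limma adjusted p = 0.233). Klrc2 and Klrc3 are near-identical genes, and how far their probes tell the transcripts apart was not tested.

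Klrk1, encoding NKG2D, lay close to the array median. Its log2 signal was 3.37, 3.24 and 3.25 in Runx3-/- arrays, against 3.63, 3.44 and 3.88 in WT arrays. Every Runx3-/- array was below every WT array, and the median was reached on 0 of 3 Runx3-/- arrays and 2 of 3 WT arrays. The difference of -0.37 ± 0.12 (SE, 95% interval -0.65 to -0.084) did not pass after adjustment (limma adjusted p = 0.0956), nor in any fit that left out 1 array (adjusted p = 0.0596 to 0.225).

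Of the NKR-P1 receptors, Klrb1c encodes NK1.1, an activating receptor long used as an NK cell marker. It was below the array median on all 6 arrays, with signals of 2.79, 2.67 and 2.93 in Runx3-/- arrays, against 2.87, 2.94 and 3.29 in WT arrays. The groups overlapped, and without the filter the 95% interval of the difference of -0.24 was -0.52 to 0.050 (limma adjusted p = 0.368). Without WT array 3 the difference was -0.11.

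Klrb1f encodes a receptor of the same family that binds the lectin-like protein Clr-g, the product of Clec2i. Its signal was 3.29, 3.74 and 3.49 in Runx3-/- arrays, against 2.97, 2.91 and 3.06 in WT arrays. All Runx3-/- arrays were above all WT arrays, at a difference of 0.53 ± 0.13 (SE, 95% interval 0.24 to 0.82, limma adjusted p = 0.0328), or 1.44-fold higher. Klrb1f passed the filter through Runx3-/- array 2 alone and was below the median on all WT arrays, so it could be tested only by being higher in Runx3-/-. That array was also the highest Runx3-/- array in 11 of 11 tested dendritic cell markers and in 43.6% of all genes tested, and the part of this in the result was not tested. The call was lost without Runx3-/- array 2 (difference 0.41, limma adjusted p = 0.0867), without Runx3-/- array 3 (0.0860), without WT array 1 (0.0976) and without WT array 2 (0.0901). It was likewise lost with the replicate number as a block (0.0552) and without moderated variances (0.149). The fit of all genes without the filter kept the call (limma adjusted p = 0.0465).

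Klrg1 encodes an inhibitory receptor for E-cadherin that marks effector T cells and mature NK cells. Its signal was 6.52, 4.50 and 3.87 in Runx3-/- arrays, against 3.41, 3.35 and 3.69 in WT arrays. Runx3-/- array 1 stood far above the other 2, while Runx3-/- array 3 was close to the highest WT array, although the groups did not overlap. Mean signal was 4.96 ± 1.38 in Runx3-/- and 3.48 ± 0.18 in WT (SD, n = 3 each). The difference of 1.48 ± 0.56 (SE, 95% interval 0.19 to 2.77, 2.79-fold) did not pass after adjustment (limma adjusted p = 0.129). Without Runx3-/- array 1 the difference was 0.70 (limma adjusted p = 0.0727), and without Runx3-/- array 3 it was 2.03 (0.0680).

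The methods of the study called genes at 1.5-fold, a p-value under 0.05 and a signal over background on at least 1 array. The filter at the array median took the place of that background here. The methods do not say whether the p-value was adjusted. Taken as an unadjusted limma p, that rule was met by 801 genes (8.07%), of which 491 were lower (4.95%) and 310 higher in Runx3-/- (3.12%). Klrd1 met it as lower and Klrg1 as higher (limma adjusted p = 0.129), and the other 5 tested members did not. The unadjusted p-value of Klrg1 in limma was 0.0289 over all arrays, and it no longer met the rule without WT array 1 (0.0648) or without WT array 2 (0.0663). Klrg1 also missed it with trended and robust moderation (0.0635) and without moderation (0.140).

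Klre1 encodes a receptor that pairs with the products of Klri1 and Klri2. Its signal was 3.71, 3.57 and 3.72 in Runx3-/- arrays, against 3.49, 3.64 and 3.60 in WT arrays, which overlapped. The difference was 0.094 ± 0.094 (SE, 95% interval -0.12 to 0.31, limma adjusted p = 0.565), an interval that lies within 1.5-fold in both directions for a signal close to the array median. Klri1 had signals of 4.14, 4.91 and 4.51 in Runx3-/- arrays, against 4.83, 4.95 and 5.37 in WT arrays. Its difference of -0.53 ± 0.21 (SE) did not pass (limma adjusted p = 0.137), and that of Klri2 was 0.045 ± 0.088.

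Klra7 encodes Ly49G2, an inhibitory receptor for classical MHC class I. The array reads it only through a probe set shared by 6 Klra genes, so no value belongs to Klra7 alone. The shared probe set gave 3.20, 3.08 and 3.19 in Runx3-/- arrays, against 3.30, 3.28 and 3.54 in WT arrays, and reached the array median on 1 array. All Runx3-/- arrays were below all WT arrays, by a mean of -0.22. The 3 other shared probe sets of Klra genes were below the median on every array, with differences of -0.15, -0.23 and -0.11.

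**Figure D2:**
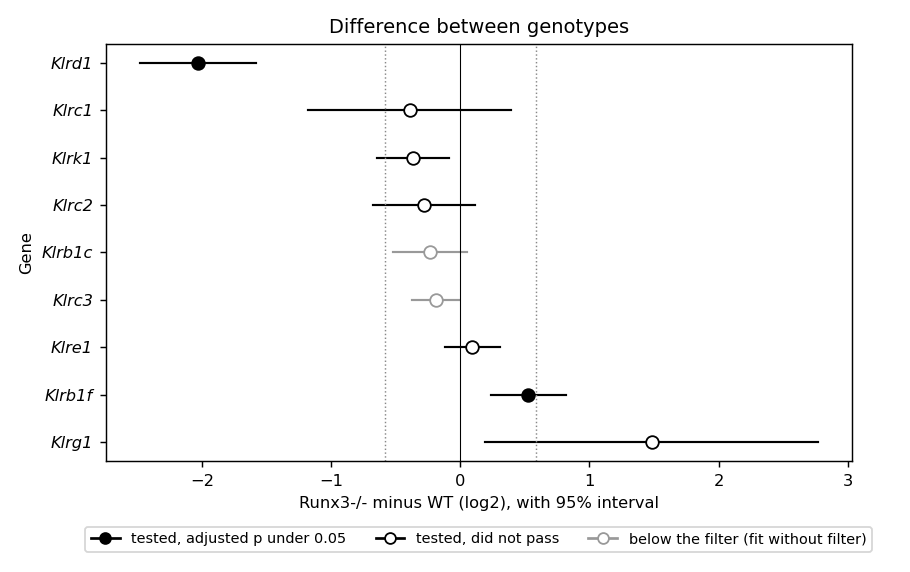
Difference between genotypes, Runx3-/- minus WT on the log2 scale (x axis), for the 9 members with a probe set of their own (y axis), with 95% intervals. Filled points passed at an adjusted p under 0.05, grey points were below the filter and come from the fit without it, and dotted lines mark 1.5-fold. Klrd1 lay at -2.03 with an interval clear of all others, and Klrg1 had the widest interval, 0.19 to 2.77.

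Klre1, Klrd1, Klrk1, Klrc3, Klrc2 and Klrc1 are adjacent in the genome, and Klrb1c, Klrb1f and Klra7 lie apart from them in the same gene complex. In the GRCm38.p6 annotation, 48 protein-coding genes run from Klrb1a to Klra2 on chromosome 6, with 9 members among them, and 109 protein-coding genes separate Klrg1 from Klrb1a. Of the 17 tested genes in the complex, 2 fell (Klrd1 and Gabarapl1) and 3 rose (Clec2i, Klrb1f and Cd69), against 6.00% and 5.63% of all genes tested. Klrd1 sits between Klre1 and Klrk1, whose differences were 0.094 and -0.37. Next to Klre1 on the far side is Gabarapl1, an autophagy gene, which fell by 0.82 (SE 0.15, limma adjusted p = 0.0129). Gabarapl1 had a Runx3-/- mean of 3.16 ± 0.12 (SD), below the array medians, so it was tested through its level in WT. Cd69, an early activation marker of T cells that lies between Klrb1f and Klrd1, rose by 0.60 ± 0.098 (SE, limma adjusted p = 0.00716).

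**Figure D3:**
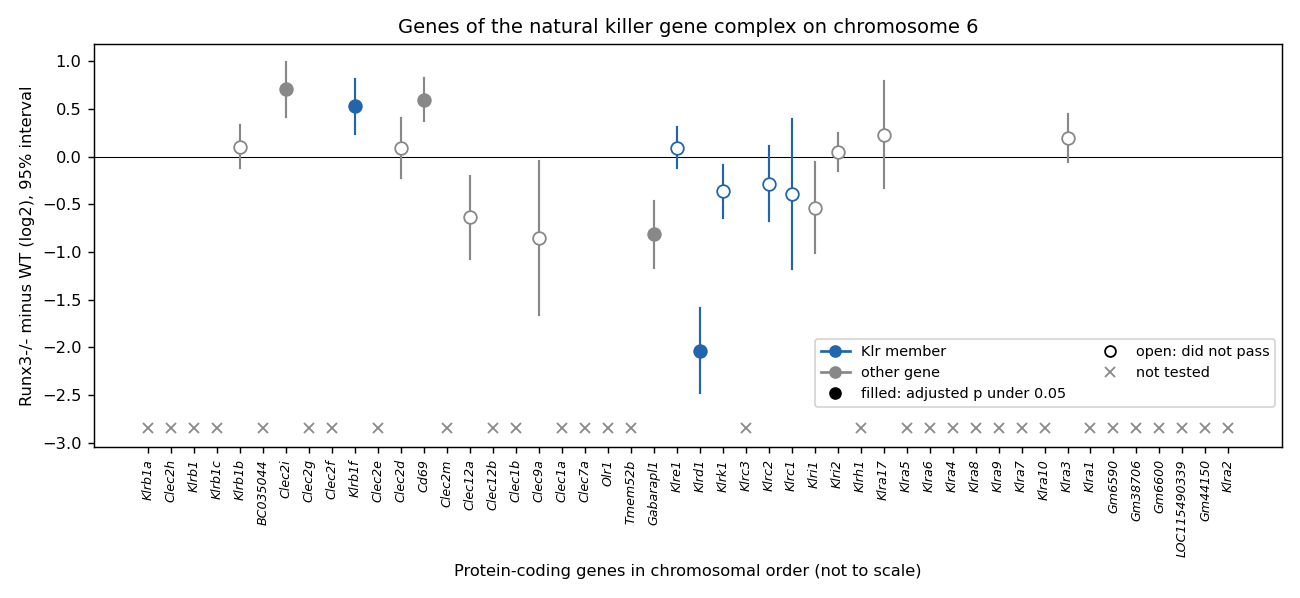
Difference between genotypes, Runx3-/- minus WT (log2, y axis, 95% intervals), for the protein-coding genes of the NK gene complex in chromosomal order (x axis, not to scale). Members are blue, other genes grey, filled points passed at an adjusted p under 0.05, and crosses mark genes that were not tested. Klrd1 at -2.03 stood below its tested neighbours Klre1 at 0.094 and Klrk1 at -0.37.

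Across the other Klr genes, 14 of 31 listed had a probe set of their own and 5 were tested. None passed the adjusted threshold in limma, which 11.6% of all genes tested passed. Of the 5, only Klri1 had an unadjusted p under 0.05. Their median difference was 0.10. Klra3, Klra17 and Klrb1b gave differences of 0.20, 0.23 and 0.10. Klra3 reached the array median on Runx3-/- array 3 only, so its direction was partly set by the filter. Klra17 was at 4.50 in Runx3-/- array 2, against 3.58 and 3.46 in the other Runx3-/- arrays.

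Of the adaptors and signalling proteins that act downstream of these receptors, 20 of 22 listed were tested, at a median of -0.083. Among these 20, 5 fell, 5 rose and 10 did not pass, against 6.00% lower and 5.63% higher over all genes tested. Those that fell included Syk, a kinase recruited by receptor adaptors (-1.93 ± 0.16 SE, limma adjusted p = 0.000261). Fcer1g, an adaptor of Fc and NKR-P1 receptors, had signals of 4.70, 4.66 and 4.85 in Runx3-/- arrays, against 6.36, 5.91 and 6.39 in WT arrays. The Fcer1g groups did not overlap (-1.48 ± 0.14 SE, limma adjusted p = 0.000501). The phospholipase Plcg2 fell as well (-1.65 ± 0.19 SE, limma adjusted p = 0.00115), as did the exchange factor Vav2 and the phosphatase gene Ptpn6 by -0.58 and -0.42. Those that rose were Lcp2, which encodes SLP-76 (0.63 ± 0.10 SE, limma adjusted p = 0.00616), Cd247, which encodes the CD3 zeta chain (0.61), the kinases Zap70 (0.44) and Fyn (0.39), and Plcg1 (0.44).

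The adaptors of NKG2D itself did not pass. Tyrobp, which encodes DAP12 and also serves the activating CD94 receptors, had signals of 5.01, 5.74 and 4.99 in Runx3-/- arrays, against 5.88, 5.56 and 6.32 in WT arrays. The groups overlapped through Runx3-/- array 2 (-0.67 ± 0.24 SE, limma adjusted p = 0.114). Hcst, which encodes DAP10, had signals of 4.34, 4.46 and 4.41 in Runx3-/- arrays, against 4.41, 4.47 and 4.75 in WT arrays (-0.14 ± 0.11 SE, limma adjusted p = 0.455), which also overlapped.

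Syk, Plcg2, Fcer1g, Tyrobp and Ptpn6 are also expressed in B cells or myeloid cells, and markers of these cells moved in the same direction. All 9 tested B cell markers fell (median -2.29), against 6.00% of all genes tested. Their summed log2 level was 7.54 to 7.98 in Runx3-/- arrays and 10.1 to 10.7 in WT arrays. All 12 macrophage markers fell (median -2.72), at 8.01 to 8.96 in Runx3-/- arrays and 11.3 to 11.4 in WT arrays. All 6 tested erythroid markers fell (median -2.28), at 6.33 to 6.41 in Runx3-/- arrays and 8.30 to 9.04 in WT arrays, and 2 of 11 tested dendritic cell markers fell (median -0.86), at 11.30 to 12.17 in Runx3-/- arrays and 12.11 to 12.95 in WT arrays. Of the listed genes with a probe set of their own, 5 of 7 erythroid and 2 of 9 B cell genes were below the array median on all Runx3-/- arrays. Those of them that were tested passed the filter through WT arrays only, so their direction was partly set by the filter. The marker lists were chosen with earlier results of these data known, so their counts describe the listed genes and are not a test. The part of all these cell types in the differences of Klr genes and adaptors was not tested. In such bulk samples, fewer cells of a type and less RNA per cell cannot be told apart.

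Ligands of the receptors were mostly dim, with 9 of 17 listed genes on a probe set of their own and 4 tested. Clec2i, whose product Clr-g is bound by the Klrb1f receptor, had signals of 7.85, 8.18 and 7.92 in Runx3-/- arrays, against 7.10, 7.42 and 7.31 in WT arrays. All Runx3-/- arrays were higher (0.70 ± 0.12 SE, limma adjusted p = 0.0100). H60b, a ligand of NKG2D, did not pass (0.46 ± 0.14 SE, limma adjusted p = 0.0712), nor did Clec2d (0.092) or Raet1d (0.075). The only gene past the threshold among the 4 was thus Clec2i, where 11.6% of all genes tested passed.

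Most tested NK cell markers did not differ past the threshold, which 11.6% of all genes tested passed. Of 18 markers, 7 were below the array median on all 6 arrays, including the defining markers Ncr1 and Itga2. Ncr1, encoding NKp46, had signals of 2.74, 2.77 and 2.71 in Runx3-/- arrays, against 2.94, 2.98 and 3.16 in WT arrays. The Ncr1 groups did not overlap (-0.29). The summed log2 level of the list overlapped between genotypes, at 8.95 to 9.66 in Runx3-/- arrays and 8.91 to 9.55 in WT arrays. This sum is set by the bright genes of the list. Eomes and Xcl1 are also on the list of memory-phenotype CD8+ T cells below, so the sum is not a measure of NK cells alone. Of the 11 tested, Cd244a, encoding the receptor 2B4, fell (-0.52 ± 0.12 SE, limma adjusted p = 0.0278), Gzma, encoding granzyme A, rose (2.48 ± 0.56 SE, limma adjusted p = 0.0275), and 9 did not pass. CD8 T cell markers were bright in both genotypes, with differences of 0.18 for Cd3g, -0.038 for Cd8a and -0.14 for Cd8b1, the 3 brightest. Of the 11 tested CD8 T cell markers, 7 had a difference above 0, the median was 0.18, and 1, Lat, passed (0.55).

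Genes of memory-phenotype CD8+ T cells, the T cells best known for these receptors, were tested for 15 members. Nkg7, encoding a granule protein, fell (-1.51 ± 0.21 SE, limma adjusted p = 0.00347), as did the transcriptional regulator Id2 (-0.50). Fasl, encoding Fas ligand, rose (0.52) and 12 did not pass, where 11.6% of all genes tested passed. Fasl reached the array median on Runx3-/- arrays only, so it could be tested only by being higher there. The 12 others ran from -0.95 for Xcl1 and -0.56 for Eomes to 0.42 for Ccl5 and 1.05 for Il18r1, and the median of the list was 0.13. In NKT and gamma-delta T cell genes, Cxcr6 fell by 3.02, Blk fell as well, Slamf6 rose by 0.80, and 3 of 6 tested did not pass.

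Members also varied among the arrays of a genotype. WT array 3 was the highest WT array in 6 of 7 tested members, in 11 of 15 memory-phenotype genes and in 32.1% of all genes tested. It lay above the WT mean by 0.77 in Klrc1, 0.43 in Klrc2, 0.25 in Klrd1 and 0.23 in Klrk1, and by 0.81 in Eomes and 0.83 in Tbx21, which encode regulators of memory and effector T cells. The same array was the highest WT array in 9 of 9 B cell markers, 11 of 11 dendritic cell markers and 0 of 11 CD8 T cell markers. Runx3-/- array 1 lay above the Runx3-/- mean by 1.56 in Klrg1, by 1.48 in Gzma and by 0.47 in S1pr5, whose product guides effector T cells and NK cells out of tissues. It was the highest Runx3-/- array in 3 of 7 tested members, 9 of 11 NK cell markers, 12 of 15 memory-phenotype genes, 9 of 11 CD8 T cell markers, 0 of 12 macrophage markers and 35.6% of all genes tested. The part of these differences between arrays of a genotype in the results of Klrg1 and Klrc1 was not tested.

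**Figure D4:**
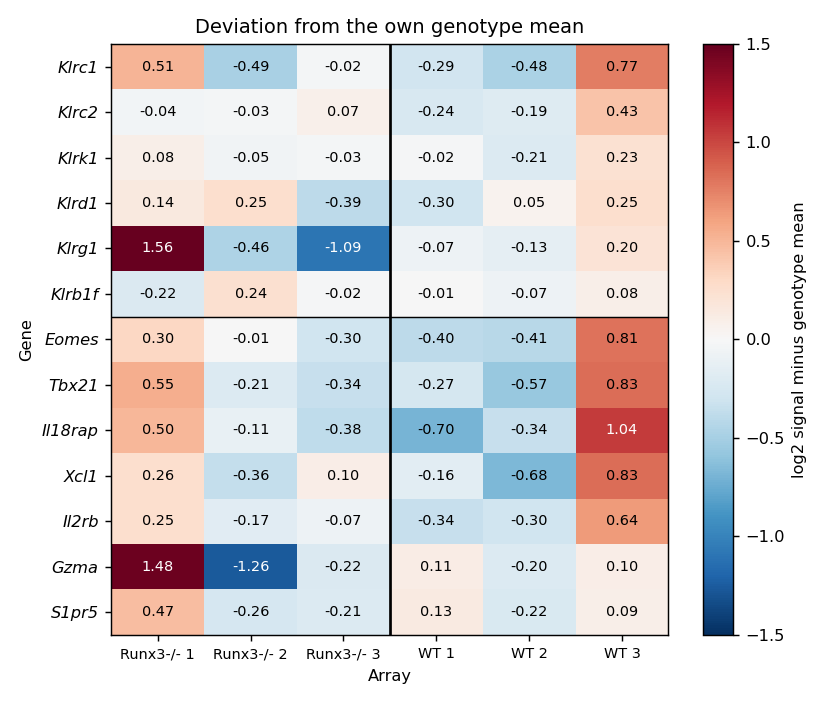
Deviation of each array (x axis, Runx3-/- left of WT) from the mean of its own genotype, in log2 units by colour and number, for 6 members (top) and 7 genes of memory or effector T cells and NK cells (bottom). The colour scale ends at 1.5 in either direction. Klrg1 and Gzma were both highest in Runx3-/- array 1, at 1.56 and 1.48, and Klrc1 was highest in WT array 3, at 0.77.

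The genes whose pattern over the 6 arrays was most like that of Klrd1 were Scarb1, Tmem243, Prelid2, Ndufa4 and Cldnd1, with Pearson r from 0.990 to 0.997. These are correlations over arrays of both genotypes, so a gene scores high when its fall is large against its spread within genotypes. Ndufa4, for example, fell by only 0.34, and 182 tested genes exceeded 0.95. Scarb1, encoding a lipoprotein receptor, differed by -0.89 ± 0.11 (SE), and Prelid2 by -1.61 ± 0.17. None of the other members was among these 5, and their r with Klrd1 ran from -0.83 (Klrb1f) to 0.83 (Klrk1).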

How the data were processed

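RNA of resting splenic CD8+ T cells was hybridised to 6 Affymetrix arrays, 3 per genotype and 1 per biological repeat. According to the methods, the authors normalised the arrays in Partek Genomics Suite by RMA with GC correction, and deposited log2 signals for 35399 probe sets. Software versions and build: not given in the sources used here. Intensities before RMA were not used here, and the number of arrays limits the precision.

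Of the probe sets, 21789 carried 1 gene symbol, 1621 several and 11989 none. The brightest single-gene probe set was kept per gene. Genes at or above the array median on at least 1 of 6 arrays were tested with limma 3.58.1 (R 4.3.3; lmFit and eBayes, two-sided, Benjamini-Hochberg), with no covariate and no further normalisation. The fit was tested on simulated data. Other filters, scalings, variance models, array weights, all probe sets, a replicate block and leaving out each array were tried. Array medians were 3.45 to 3.53.

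The rule for named genes allowed all members, Runx3, up to 4 called genes of each list with the lowest p and its 3 brightest, the 5 genes most like Klrd1, and neighbours in the complex. Some genes that the rule allowed were not named, among them all genes of the B cell, macrophage, erythroid and dendritic cell lists. Members and lists were chosen with earlier results of these data known. Genes outside this rule (Raet1d, Klra3, Klrb1b, Tbx21, Il2rb, Xcl1, Il18r1, S1pr5, Itga2, Ncr1, Cd247, Zap70, Plcg1, Vav2, Tyrobp, Hcst, Gabarapl1 and Cd69) were added after their values were seen.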

Additional observations from a re-analysis of the deposited data

How the results depend on the processing

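Klrd1 kept its direction and passed in 15 of 16 alternatives, with adjusted p from limma of 0.0602 without moderation of variances. Klrb1f passed in 9 and missed in 6, and no member reversed its direction. Without moderation, 178 genes differed (92 lower and 86 higher in Runx3-/-) and 0 members passed. One filter, on the mean over all arrays, left Klrb1f untested and 1 member passing. With the replicate block, 1084 genes differed (519 lower, 565 higher) and 1 member passed. Same-numbered arrays correlated in their deviations at 0.18, 0.032 and -0.00014, so the numbers were not taken as pairs, and in 1 of 3 Runx3-/- arrays the same number correlated best.

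Leaving out each array in turn gave 623 to 924 genes that differed (322 to 503 lower, 233 to 434 higher), 1 to 2 members past the threshold and 775 to 912 genes under the 1.5-fold rule. Counts fell most without WT array 1 (623; 368 lower, 255 higher), Runx3-/- array 3 (624; 322 lower, 302 higher) and Runx3-/- array 2 (632; 233 higher), and 331 genes were higher without WT array 2. Fewer arrays leave fewer degrees of freedom. Dim signals limit Klrc2, Klrc3, Klrb1c, Klrb1f, Klrk1 and Klre1, which lay near or below the array median, as did Klrg1 in WT.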
